A study of Mus musculus with 4 samples.

Results

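Superoxide dismutases, catalase and glutathione peroxidases are the enzymes that remove superoxide and peroxides, and 9 of their genes (Sod1, Sod2, Sod3, Cat, Gpx1, Gpx3, Gpx4, Gpx7 and Gpx8) are described here with Nox4, an oxidase that produces hydrogen peroxide. The 10 genes were taken by symbol from the 22488 genes listed for each library, and all 10 were found. They were chosen by symbol when their FPKM and fold changes between these same libraries were already known, so their values are given as a description, with no p-value. The libraries come from C57BL/6 mouse vascular smooth muscle cells (VSMCs), which form the muscular layer of arteries, in culture at passage 4 to 10 and collected 48 hours after transfection. One group received siRNA against circEsyt2, which is a circular transcript that takes its name from Esyt2 (2 libraries), and the other received scramble siRNA as the control (2 libraries). Cells without transfection were not analysed here, the vessel of origin is not stated in the labels, and no label says that the replicates were separate cultures, so the p-values rest on the spread between these libraries alone, which may be technical.

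Superoxide is converted to hydrogen peroxide by 3 superoxide dismutases that work in different places: Sod1 mainly in the cytosol, Sod2 in mitochondria and Sod3 outside the cell, where it binds the matrix of the vessel wall. Catalase degrades hydrogen peroxide in peroxisomes, and glutathione peroxidases reduce hydrogen peroxide or lipid peroxides. In vascular smooth muscle, Nox4 is a membrane oxidase known for releasing hydrogen peroxide, and Sod3 is known as a secreted product of these cells.

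The glutathione peroxidases fall into a selenocysteine and a cysteine type, which the coding sequence shows at the catalytic codon. The windows below, from GENCODE M21 transcripts on GRCm38, run 5′ to 3′ with 27 bases on each side of that codon, which is in capitals, and they are shown because family members differed from each other in the results below. In Gpx1, Gpx3 and Gpx4 the codon is TGA, the single in-frame TGA of each coding sequence and annotated as selenocysteine, whereas Gpx7 and Gpx8 carry the cysteine codons TGT and TGC.
Gpx1: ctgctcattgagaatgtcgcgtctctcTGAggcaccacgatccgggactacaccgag
Gpx3: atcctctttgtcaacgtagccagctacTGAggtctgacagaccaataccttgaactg
Gpx4: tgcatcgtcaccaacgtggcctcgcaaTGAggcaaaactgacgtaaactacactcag
Gpx7: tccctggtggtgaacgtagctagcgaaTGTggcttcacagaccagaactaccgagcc
Gpx8: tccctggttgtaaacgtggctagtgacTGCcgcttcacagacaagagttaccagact

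The codon is number 47 of the coding sequence in Gpx1 (chr9:108339451-108339453, plus strand), 73 in Gpx3 (chr11:54907256-54907258, plus strand) and 73 in the principal transcript of Gpx4 (chr10:80054737-80054739, plus strand). It is number 56 in Gpx7 (chr4:108403430-108403432, minus strand) and 79 in Gpx8 (chr13:113045661-113045663, minus strand). All 5 codons lie in coding exons, and the Gpx3 window spans a splice junction. Over the 57 bases, the cysteine pair Gpx7 and Gpx8 shared 43 bases, the most of the 10 pairs, and the other pairs shared 25 to 34.

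Fragments assigned to genes, recovered from the digits of the deposited FPKM (a fragment number divided by gene length in kilobases and by library size), numbered 3765056 and 3127224 in the circEsyt2 siRNA libraries and 2516428 and 4116791 in the scramble libraries. The host gene Esyt2 had 40.6 and 48.7 FPKM with circEsyt2 siRNA, against 53.4 and 50.6 FPKM with scramble siRNA, and did not pass the test (log2 fold change −0.22, SE 0.13; limma adjusted p = 0.318), with a fold change of −0.09 without circEsyt2 siRNA replicate 1 and −0.35 without replicate 2; the row covers all exons of Esyt2 and is no check of the circular transcript. The labelled cell type was checked on 10 smooth muscle markers, all above 0 in every library. They summed to 1247 and 1203 FPKM with circEsyt2 siRNA and to 1939 and 1949 FPKM with scramble siRNA. Most of the sum was the actin gene Acta2, at 883 and 829 FPKM with circEsyt2 siRNA and 1421 and 1446 FPKM with scramble siRNA. Cald1 and Tpm2 came next, whereas across libraries Tagln had 5.08 to 10.4 FPKM, Myh11 1.15 to 8.58 FPKM and Des 0.423 to 1.04 FPKM. Of the 10 smooth muscle markers, 7 of 9 tested were called lower and 0 higher with circEsyt2 siRNA. Over all tested genes 7.26% were called lower and 5.47% higher, the shares to set beside each marker count here. One library stood furthest apart, and the other circEsyt2 siRNA library also exceeded both scramble libraries in summed hepatocyte markers. The 22 hepatocyte markers, led by Alb, Apoa1 and Apoa2, summed to 3944 FPKM in circEsyt2 siRNA replicate 1 and 128 FPKM in replicate 2, against 21.3 and 15.2 FPKM in the scramble libraries. Macrophage markers (led by Lyz2, Csf1r and Cd68) summed to 39.8 FPKM in circEsyt2 siRNA replicate 1 and to 4.45 to 8.29 FPKM in the other 3 libraries. Erythroid markers (led by Hbb-bs, Alas2 and Hba-a1) summed to 15.5 FPKM against 1.32 to 3.57 FPKM. In that replicate 1, Lyz2 alone had 21.4 FPKM and Hbb-bs 10.0 FPKM. Csf1r (1.74 FPKM) and Alas2 (0.663 FPKM) did not peak there, at 3.48 FPKM in scramble replicate 2 and 1.32 FPKM in scramble replicate 1. The fibroblast markers (led by Col1a1) summed to 639 and 727 FPKM with circEsyt2 siRNA, against 916 and 825 FPKM with scramble siRNA, and 3 of 8 tested were called lower (Pdgfra, Thy1 and Mfap5, named after their values were seen). The endothelial markers summed to 10.0 and 8.87 FPKM with circEsyt2 siRNA, against 4.27 and 5.09 FPKM with scramble siRNA, with 1 of 2 tested called higher (Kdr) and Cldn5 at 0 in every library. The kidney tubule (led by Cubn) and adipocyte (led by Pparg) lists lay between 2.57 and 20.0 FPKM in each library. The part of these marker differences in the results below was not tested.

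Sod3, Gpx3 and Gpx8 were lower with circEsyt2 siRNA, Nox4 was higher, and the 6 other genes were not called. Tests ran over all 11290 genes with a mean of at least 1 FPKM, using limma on log2(FPKM + 1) with a Benjamini-Hochberg adjusted p under 0.05, and all 10 genes passed that filter. A gene is written as called where it passes this threshold. In all, 4 of the 10 genes were called (1 higher and 3 lower), beside 12.7% of all tested genes (5.47% higher and 7.26% lower); since the genes were chosen with this comparison known, nothing is read from that count. The median log2 fold change of the 10 genes was −0.12, and that of all tested genes was 0.00.

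**Figure D1:**
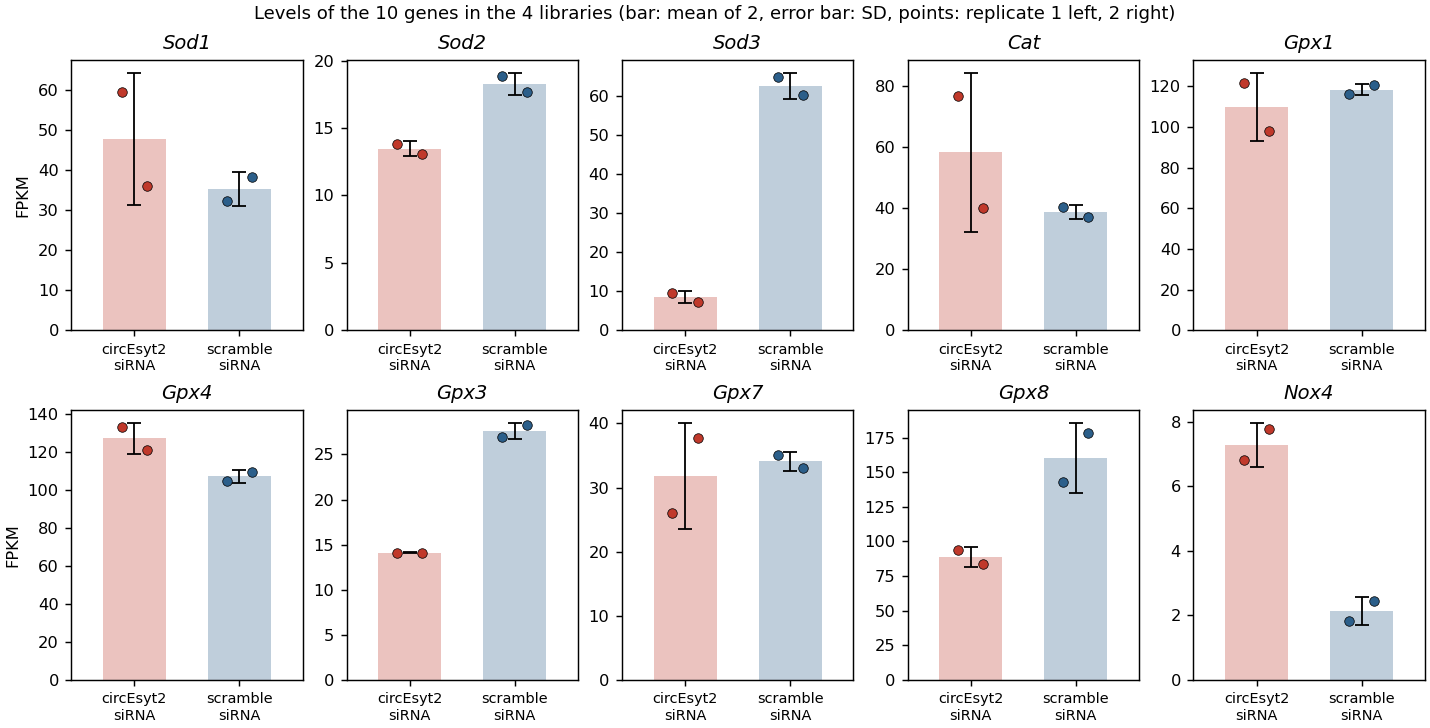
FPKM of each gene in the circEsyt2 siRNA libraries (red, left) and the scramble siRNA libraries (blue, right), each panel with its own axis from 0; bars are means of 2 libraries, error bars are SD and points are libraries. The groups lie apart for Sod2, Sod3, Gpx3, Gpx4, Gpx8 and Nox4, and the circEsyt2 siRNA points spread widely for Sod1 and Cat.

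Among the dismutases, extracellular Sod3 differed most between the groups. Sod3 (chromosome 5, 52363791 to 52371418 of GRCm38, plus strand) had 9.59 and 7.36 FPKM in the circEsyt2 siRNA libraries, from 135 and 86 fragments, against 65.1 and 60.3 FPKM in the scramble libraries, from 612 and 928 fragments. Both circEsyt2 siRNA values lay far below both scramble values, and the means of 8.47 ± 1.58 and 62.7 ± 3.36 FPKM (SD, n = 2 each) were 7.40-fold apart. The log2 fold change was −2.76 (SE 0.16), and it lay between −2.93 and −2.59 over 14 alternative settings. Because these are bulk samples, fewer cells of a kind and less RNA per cell cannot be told apart in this or any other difference.

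Mitochondrial Sod2, the manganese enzyme, had 13.9 and 13.1 FPKM with circEsyt2 siRNA and 18.9 and 17.7 FPKM with scramble siRNA. The groups did not overlap, but the difference of −0.41 on the log2 scale (SE 0.13) was not called, except by limma's voom on the recovered fragments, where it was −0.43 (SE 0.13). Separation of this kind was common, since the groups did not overlap in 60.7% of all tested genes.

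Cytosolic Sod1, the copper and zinc enzyme, had 59.5 and 36.2 FPKM with circEsyt2 siRNA and 32.2 and 38.3 FPKM with scramble siRNA. Only circEsyt2 siRNA replicate 1 was high, and the other circEsyt2 siRNA library lay between the scramble libraries. The log2 fold change was 0.39 (SE 0.24), not called, and 0.04 (SE 0.17) without circEsyt2 siRNA replicate 1.

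Catalase, the peroxisomal enzyme, followed the same layout. Cat (chromosome 2, 103453849 to 103485160, minus strand) had 76.6 and 39.9 FPKM with circEsyt2 siRNA, from 754 and 326 fragments, and 40.3 and 37.2 FPKM with scramble siRNA, from 265 and 400 fragments. The high library was again circEsyt2 siRNA replicate 1, and replicate 2 fell within the scramble range. The log2 fold change was 0.50 (SE 0.29) and not called. Without circEsyt2 siRNA replicate 1 it was 0.04 (SE 0.14), and without replicate 2 it was 0.97 (SE 0.12) and called. That first library is the one in which all 22 hepatocyte markers reached at least 1 FPKM, against 18 in circEsyt2 siRNA replicate 2 and 3 and 4 in the scramble libraries. Hepatocytes are known for high catalase and Sod1. The part of these cells' RNA in the Cat and Sod1 values was not tested.

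**Figure D2:**
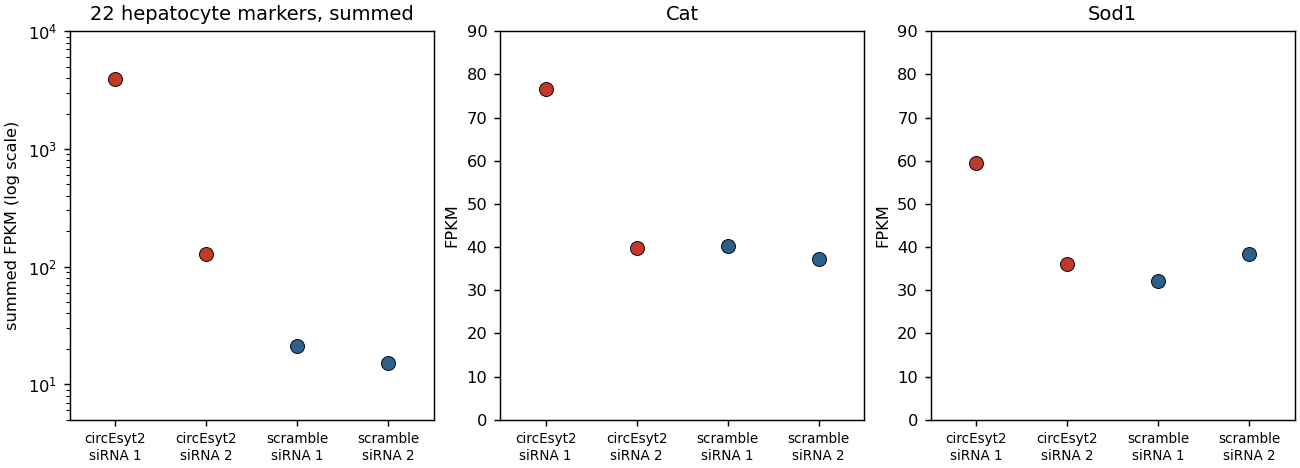
Summed FPKM of 22 hepatocyte markers (left, log scale) and FPKM of Cat and Sod1 (middle and right, linear scale) in each library, red for circEsyt2 siRNA and blue for scramble siRNA. All 3 panels peak in circEsyt2 siRNA replicate 1, at 3944, 76.6 and 59.5 FPKM, and in the Cat and Sod1 panels the other 3 libraries lie close together.

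The selenocysteine-type peroxidases differed among themselves, and of the 3 only Gpx3 was called. Gpx4, which reduces lipid hydroperoxides in membranes, had 133 and 121 FPKM with circEsyt2 siRNA, against 105 and 110 FPKM with scramble siRNA. The groups did not overlap, yet the log2 fold change of 0.24 (SE 0.10) was not called here or in any of 14 alternative settings, in which it ranged from 0.17 to 0.31. Gpx1, the cytosolic peroxidase, had 122 and 98.1 FPKM with circEsyt2 siRNA and 116 and 120 FPKM with scramble siRNA. Its groups overlapped, the log2 fold change was −0.11 (SE 0.13), and it was −0.27 without circEsyt2 siRNA replicate 1 and 0.04 without replicate 2.

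Gpx3, which is secreted and circulates in plasma, was the selenocysteine-type gene with lower values. It had 14.1 and 14.1 FPKM with circEsyt2 siRNA, from 96 and 80 fragments, against 26.96 and 28.3 FPKM with scramble siRNA, from 123 and 211 fragments. The libraries of each group were close to each other, at 14.1 ± 0.0328 against 27.6 ± 0.926 FPKM (SD, n = 2 each), a 1.96-fold difference by mean. The log2 fold change was −0.92 (SE 0.13). Leaving out circEsyt2 siRNA replicate 2 ended the call, at a fold change of −0.93 (SE 0.13). Kidney tubules, known as a main source of plasma Gpx3, were covered by 10 markers, of which 0 reached 1 FPKM in the circEsyt2 siRNA libraries and 1 and 0 in the scramble libraries. These markers summed to 4.93 and 2.57 FPKM with circEsyt2 siRNA and to 3.08 and 3.47 FPKM with scramble siRNA.

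The cysteine pair Gpx7 and Gpx8, both of the endoplasmic reticulum, differed from each other in layout. Gpx8, a membrane protein of that compartment, had 94.0 and 83.9 FPKM with circEsyt2 siRNA, from 371 and 275 fragments, against 143 and 178 FPKM with scramble siRNA, from 376 and 770 fragments. All circEsyt2 siRNA values lay below the scramble values, and the means of 89.0 ± 7.15 and 161 ± 25.4 FPKM (SD, n = 2 each) were 1.804-fold apart. The log2 fold change was −0.84 (SE 0.14). The call was lost with eBayes without a trend, and without circEsyt2 siRNA replicate 2, where the fold change was −0.76 (SE 0.17). Gpx7, a soluble enzyme of the same compartment, had 25.96 and 37.7 FPKM with circEsyt2 siRNA and 35.1 and 33.0 FPKM with scramble siRNA. The circEsyt2 siRNA values of Gpx7 lay on either side of the scramble values, with a log2 fold change of −0.12 (SE 0.19) that was 0.14 without circEsyt2 siRNA replicate 1 and −0.38 without replicate 2.

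Nox4, the NADPH oxidase of the set, was the single gene called higher. It lies on chromosome 7 at 87246096 to 87398710, plus strand, and had 6.80 and 7.78 FPKM with circEsyt2 siRNA, from 217 and 206 fragments, against 1.83 and 2.44 FPKM with scramble siRNA, from 39 and 85 fragments. Both circEsyt2 siRNA values exceeded both scramble values, and the means of 7.29 ± 0.688 and 2.13 ± 0.430 FPKM (SD, n = 2 each) were 3.42-fold apart. Adding 1 to the FPKM shrinks the fold change of so low a gene; on that log2 scale it was 1.41 (SE 0.21), and with a pseudocount of 0.1 it was 1.74. Leaving out circEsyt2 siRNA replicate 2 ended the call, at a fold change of 1.32 (SE 0.25). Without scramble replicate 1 or scramble replicate 2, limma called none of the 10 genes and 0 of all tested genes (1959 and 2231 genes at an unadjusted p under 0.05), while the fold changes of Sod3 were −2.70 and −2.81, of Gpx3 −0.96 and −0.89, of Gpx8 −0.999 and −0.68, and of Nox4 1.27 and 1.55.

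**Figure D3:**
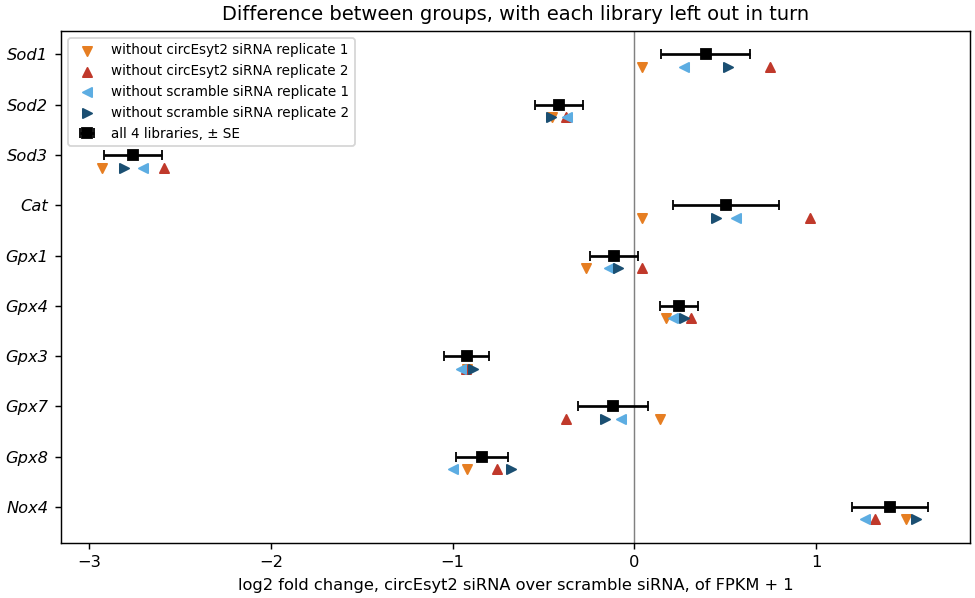
Log2 fold change of FPKM + 1, circEsyt2 siRNA over scramble siRNA, for the 10 genes (black squares with SE, all 4 libraries) and the same value with each library left out (triangles). Sod3 stays between −2.93 and −2.59 and Nox4 between 1.27 and 1.55, whereas Cat moves between 0.04 and 0.97 with the choice of circEsyt2 siRNA library.

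Within a library the 10 genes can be ordered by level, since FPKM is per length. With circEsyt2 siRNA the mean FPKM ran from Gpx4 (127), Gpx1 (110), Gpx8 (89.0), Cat (58.3), Sod1 (47.9), Gpx7 (31.8), Gpx3 (14.1) and Sod2 (13.5) to Sod3 (8.47) and Nox4 (7.29). The libraries of neighbours overlapped in this order for Gpx4 and Gpx1, for Cat, Sod1 and Gpx7, and for Sod3 and Nox4. With scramble siRNA the order was Gpx8 (161), Gpx1 (118), Gpx4 (107), Sod3 (62.7), Cat (38.7), Sod1 (35.3), Gpx7 (34.1), Gpx3 (27.6), Sod2 (18.3) and Nox4 (2.13). Here the neighbours Cat and Sod1, and Sod1 and Gpx7, overlapped. Sod3 was the ninth of the 10 with circEsyt2 siRNA and the fourth with scramble siRNA. On principal transcript length it was the tenth with circEsyt2 siRNA and the fifth with scramble siRNA, and Sod1 was the highest, at 296 FPKM with circEsyt2 siRNA and 218 FPKM with scramble siRNA on average.

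The order between genes depends on which length the FPKM is divided by, and the length that gives whole fragment numbers for all 10 genes is the union of all annotated exons. For Sod1 that union is 3970 bases, 6.19 times its principal transcript of 641 bases, and for Nox4 it is 2.26 times the principal transcript, while for Sod3, Cat and Gpx7 both lengths are equal. Of the summed FPKM of the 3 dismutases, Sod3 made up 11.6% and 13.0% in the circEsyt2 siRNA libraries, against 56.0% and 51.8% in the scramble libraries. Divided by principal transcript length, a choice made after the data were seen, the Sod3 share was 2.39% and 2.90% with circEsyt2 siRNA, against 21.9% and 18.4% with scramble siRNA. On the union length Sod3 led the dismutases with scramble siRNA and Sod1 led with circEsyt2 siRNA, whereas on the principal length Sod1 led in all 4 libraries, at 91.7% and 88.3% with circEsyt2 siRNA and 67.2% and 72.4% with scramble siRNA. The ratio between libraries for 1 gene does not depend on this length, but the log2(FPKM + 1) difference does for a low gene, and that of Nox4 was 1.59 on the principal length.

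Of the summed FPKM of the 5 glutathione peroxidases, Gpx8 made up 24.2% and 23.6% with circEsyt2 siRNA, against 33.5% and 38.0% with scramble siRNA. Gpx4 made up 34.2% and 34.2% with circEsyt2 siRNA, against 24.6% and 23.3% with scramble siRNA. By principal transcript length Gpx4 was the largest of the 5 in every library, at 44.4% and 44.7% with circEsyt2 siRNA and 34.0% and 32.7% with scramble siRNA. The sum of the 5 was 389 and 355 FPKM with circEsyt2 siRNA and 426 and 470 FPKM with scramble siRNA on the union length. The sum of the 3 dismutases on the union length was 83.0 and 56.6 FPKM with circEsyt2 siRNA, and 116 and 116 FPKM with scramble siRNA. By principal transcript length this sum was 402 and 254 FPKM with circEsyt2 siRNA and 297 and 328 FPKM with scramble siRNA. The groups then overlapped, so the direction of the dismutase sum depends on the length used.

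**Figure D4:**
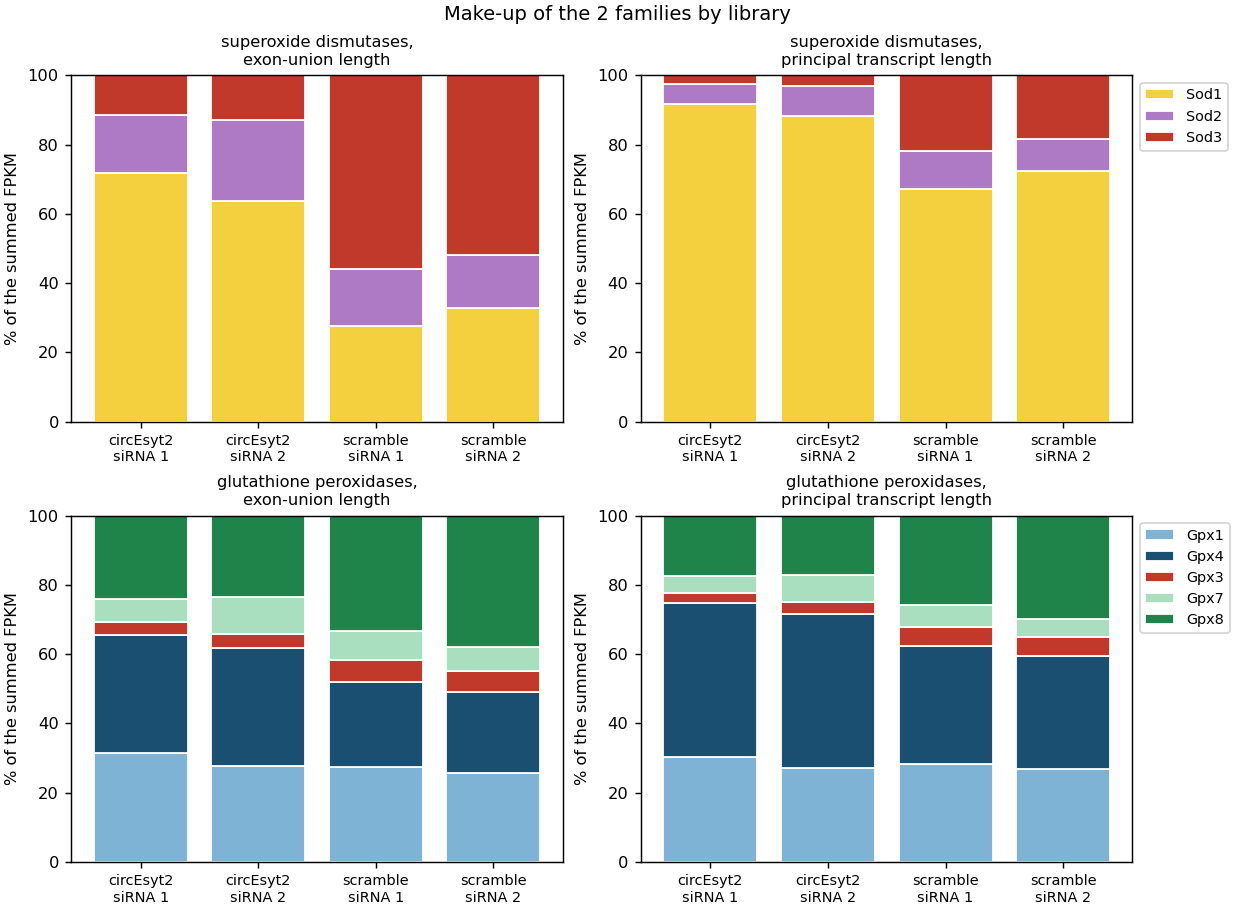
Percent of the summed FPKM taken by each dismutase (top) and each glutathione peroxidase (bottom) in the 4 libraries, with FPKM on the exon-union length (left) and on the principal transcript length (right). The Sod3 segment is 11.6% and 13.0% with circEsyt2 siRNA against 56.0% and 51.8% with scramble siRNA on the left, and smaller in all 4 libraries on the right.

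Genes with the most similar layout over the 4 libraries were found by the distance between log2(FPKM + 1) deviations from each gene's own mean, for the 4 called genes. Nearest to Sod3 were Vip, the vasoactive intestinal peptide gene (distance 0.15), Gm4841 (0.18) and the homeobox gene Prrx2 (0.31). Prrx2 had 5.42 and 4.24 FPKM with circEsyt2 siRNA, against 30.4 and 34.7 FPKM with scramble siRNA. Nearest to Gpx3 were Inhbb (0.03), Arfip2 (0.05) and Cops6 (0.05), and nearest to Gpx8 were Il11ra1 (0.04), Ppm1m (0.06) and Wdfy2 (0.08). Nearest to Nox4 were Bdnf, a neurotrophin gene (0.03), Chil5 (0.06) and Ivl (0.08). Bdnf had 67.3 and 74.0 FPKM with circEsyt2 siRNA, against 23.3 and 28.7 FPKM with scramble siRNA. Chil5 and Ivl were low, with scramble siRNA values of 0 and 0.161 FPKM and of 0.414 and 0.632 FPKM. Il11ra1, Ppm1m, Wdfy2 and Chil5 were not called (limma adjusted p = 0.0506, 0.0889, 0.0599 and 0.0697). How many genes lie within such distances was not counted, and the distances are a description.

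The other glutathione peroxidase genes were barely detected. Gpx2, Gpx5 and Gpx6 had at most 0.793 FPKM with circEsyt2 siRNA and at most 1.42 FPKM with scramble siRNA, all 3 under the filter. Of 14 other NADPH oxidase subunits 3 were tested and 0 called. Cyba, the p22phox partner of Nox4, had 43.2 and 37.2 FPKM with circEsyt2 siRNA and 55.1 and 60.3 FPKM with scramble siRNA (log2 fold change −0.51, SE 0.13; limma adjusted p = 0.0551), Rac1 had a log2 fold change of 0.30 (SE 0.10), and Poldip2, a regulator of Nox4, of −0.17 (SE 0.21). The oxidases Nox1 and Cybb, under the filter, were low throughout. Nox1 averaged 0.740 FPKM with circEsyt2 siRNA and 0.411 FPKM with scramble siRNA. Cybb, a gene of phagocytes, had 1.51 and 0.440 FPKM with circEsyt2 siRNA, from 33 and 8 fragments. With scramble siRNA it had 0.137 and 0.0836 FPKM, from 2 fragments each. Its highest value stood in circEsyt2 siRNA replicate 1, the library with the highest macrophage marker sum. Over the other libraries Cybb did not follow that sum, which was 5.88 FPKM in circEsyt2 siRNA replicate 2. In scramble replicates 1 and 2 the sum was 4.45 and 8.29 FPKM. The part of macrophage RNA in the Cybb values was not tested. These 3 tested and 2 low genes outside the called set were named after their values were seen.

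Genes that serve the members were called in both directions. Over the 10 pathway lists, 98 of 124 genes were tested, and 8 were called higher and 7 lower, or 15.3%, near the 12.7% of all tested genes. Their median log2 fold change was 0.08 beside 0.00 over all genes. It was −0.003 without circEsyt2 siRNA replicate 1 and 0.02 without replicate 2. Copper delivery, needed by Sod1 and Sod3, had 1 of 7 tested genes higher and 0 lower. Slc31a2, a copper transporter gene, had 32.0 and 29.9 FPKM with circEsyt2 siRNA, against 16.0 and 19.1 FPKM with scramble siRNA (log2 fold change 0.79, SE 0.14; limma adjusted p = 0.0228). Atp7a, the pump that loads copper onto secreted enzymes such as Sod3, had 7.54 and 8.38 FPKM with circEsyt2 siRNA and 8.28 and 7.68 FPKM with scramble siRNA, chosen after its values were seen. The selenoprotein synthesis list had 1 of 8 higher and 0 lower: Sephs2, which makes the selenium donor, rose by 0.57 on the log2 scale (SE 0.12; limma adjusted p = 0.0368). Of 17 other tested selenoprotein genes 1 was lower, Selenom of the endoplasmic reticulum, with a log2 fold change of −1.21 (SE 0.16; adjusted p = 0.0107), and the list medians were 0.11 for copper delivery, 0.32 for selenoprotein synthesis and −0.24 for other selenoproteins. Without circEsyt2 siRNA replicate 1 the medians of copper delivery and selenoprotein synthesis were 0.24 and 0.12. The Slc31a2 and Sephs2 calls were lost without circEsyt2 siRNA replicate 1 (0.74 and 0.52) and without replicate 2 (0.83 and 0.62), whereas Selenom was called in both fits.

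Peroxide-handling partners moved in both directions. Of 13 peroxiredoxin and thioredoxin genes 3 were higher and 1 lower (median 0.16, and 0.00 without circEsyt2 siRNA replicate 1). Prdx6, a peroxidase that also reduces lipid peroxides, had 114 and 111 FPKM with circEsyt2 siRNA, against 70.1 and 70.0 FPKM with scramble siRNA (log2 fold change 0.68, SE 0.10; limma adjusted p = 0.0131). Txnip, an inhibitor of thioredoxin, rose by 1.11 (SE 0.16) and Sesn2, a stress-induced sestrin, by 1.45 (SE 0.13), whereas Srxn1, which repairs over-oxidised peroxiredoxins, had a log2 fold change of −1.03 (SE 0.13). Of 13 tested genes of glutathione synthesis and reduction 3 were higher and 1 lower (median 0.24, and 0.13 without that library). Slc7a11, the cystine importer, had 18.5 and 19.4 FPKM with circEsyt2 siRNA, against 4.94 and 5.78 FPKM with scramble siRNA (limma adjusted p = 0.00470). Gclc, the glutathione synthesis enzyme, rose by 0.60 (SE 0.13), Chac1, which degrades glutathione, by 2.65 (SE 0.19), and Glrx, a glutaredoxin, had a log2 fold change of −1.31 (SE 0.26). The calls of Prdx6 (0.69), Txnip (0.93), Srxn1 (−0.92), Gclc (0.61) and Glrx (−0.91) were lost without circEsyt2 siRNA replicate 2, and that of Gclc also without replicate 1 (0.60).

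Around catalase, 1 of 15 tested peroxisome biogenesis genes was lower and 0 higher (median −0.07, and −0.20 without circEsyt2 siRNA replicate 2). That gene was Pex5, the receptor that imports catalase and other proteins into peroxisomes, with 10.9 and 12.5 FPKM with circEsyt2 siRNA, against 18.8 and 21.7 FPKM with scramble siRNA (log2 fold change −0.75, SE 0.15; limma adjusted p = 0.0320). Its call was lost without circEsyt2 siRNA replicate 1 (−0.66) and without replicate 2 (−0.83). None of the 12 tested peroxisomal oxidase and beta-oxidation genes was called. Their median was 0.33, but −0.11 without circEsyt2 siRNA replicate 1, the library highest in hepatocyte markers, and 0.68 without replicate 2. Around Gpx7 and Gpx8, 3 of 10 oxidative folding genes of the endoplasmic reticulum were lower and 0 higher (median −0.13). Txndc5, a thioredoxin-domain protein of that compartment, had 25.5 and 24.99 FPKM with circEsyt2 siRNA, against 83.3 and 87.7 FPKM with scramble siRNA (log2 fold change −1.72, SE 0.11; limma adjusted p = 0.00256). The disulfide isomerase genes Pdia6 and Pdia4 had log2 fold changes of −0.82 (SE 0.10) and −0.54 (SE 0.13), which were −0.81 and −0.40 and no longer called without circEsyt2 siRNA replicate 2. Pdia4 was also lost under either scaling factor. With eBayes without a trend, 9 of the 15 pathway calls were lost, those of Gclc, Glrx, Pdia4, Pdia6, Pex5, Prdx6, Sephs2, Slc31a2 and Txnip.

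**Figure D5:**
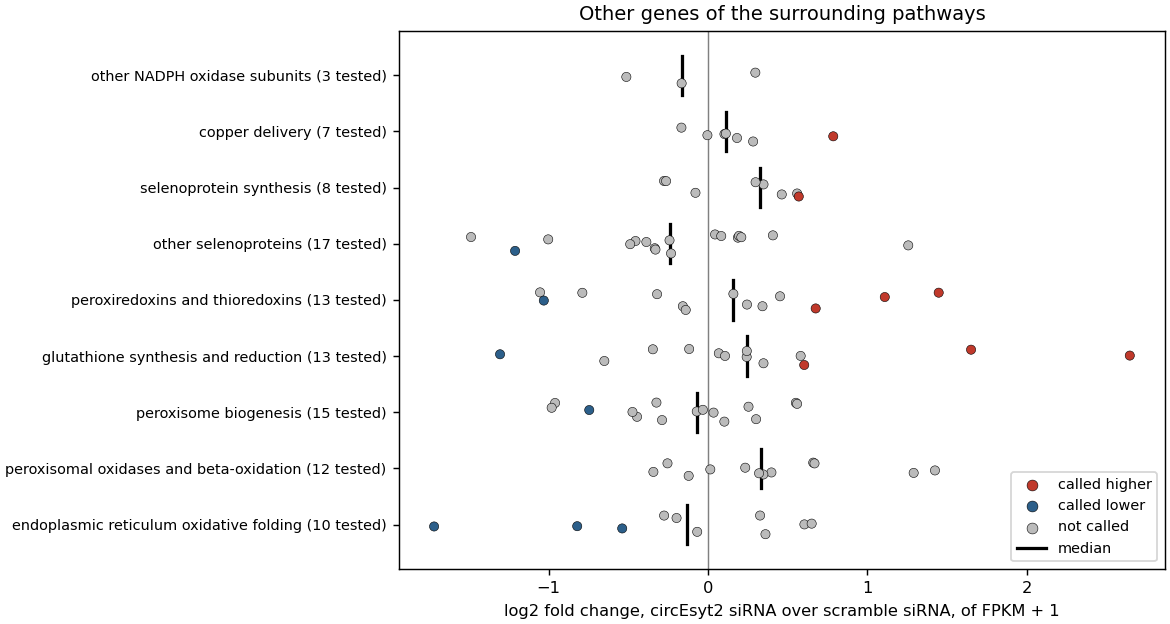
Log2 fold change of FPKM + 1, circEsyt2 siRNA over scramble siRNA, for the tested genes of each pathway list (points; red called higher, blue called lower, grey not called; vertical scatter only separates points) with list medians as black bars. Called points lie on both sides of 0, from Txndc5 at −1.72 to Chac1 at 2.65.

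Promoter sequence was available in the RefSeq table (GRCm38.p6, windows of equal length around each annotated start) for 9 of the 10 genes, Sod3 being the exception, with 12 windows in all. The core of the antioxidant response element, TGACNNNGC on either strand, was found in 1 of these 12 windows, that of Sod1, and in 12.4% of all 32851 windows. It starts 56 bases before the transcription start, on the strand opposite to the gene, and reads as follows with the match in capitals, on the strand of the gene.
Sod1: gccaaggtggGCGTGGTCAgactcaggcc

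The amino acid response element core TGATGNAA, on either strand, was found in 0 of the 12 windows and in 3.97% of all windows. The windows are short, that of Sod1 running from 90220512 to 90220811 of chromosome 16. Sequence outside the windows was not searched. A match of these letters is a description of the sequence.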

How the data were processed

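The authors deposited 1 table of FPKM per library, and per the submitters' processing notes used Trimmomatic, HISAT2 and featureCounts with GRCm38 (mm10). For versions, strand setting and annotation release: not given in the sources used here. FPKM divides by library total, so a few abundant genes shift all others. Library totals and fragment numbers were solved from the FPKM with GENCODE M21 exon-union lengths, which gave whole numbers (tolerance 0.0001) for 96.5% of the 20745 genes above 0; for the rest the smallest length giving whole numbers was used. One fragment in a 1 kb gene is worth 0.243 to 0.397 FPKM. Fragment numbers cover counting error only.

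Groups came from the sample titles. All 4 libraries entered limma 3.58.1 (R 4.3.3; lmFit, eBayes with trend, two-sided), with a pseudocount of 1. An exact permutation test of 2 against 2 cannot go below p = 0.333. Replicates of each group differed by more than counting noise (chi-square per degree of freedom 9.25 with circEsyt2 siRNA, 3.74 with scramble siRNA). The steps were also run on simulated fragments with the same spread for all libraries. That simulation held neither the unequal replicate noise given above nor an outlying library, so no conclusion is drawn from it. Strand is not known, and no other M21 gene shares exon bases with the 10 genes; GENCODE M21 annotates a processed pseudogene of Gpx4, with which its fragments could be shared.

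The members and lists were chosen with earlier results of these data known. Named genes were the members, Esyt2, the called genes of each pathway list (at most 4, by smallest p), the 3 genes nearest in layout to each called member, and the leading genes of each marker list (3 where the sum differed over 3 times within a group, otherwise 1). The markers Cald1, Tpm2, Tagln, Myh11, Des and Cldn5 were named outside this rule, with their values known. Gpx2, Gpx5 and Gpx6 are the whole of their list. Others are marked as chosen after their values were seen.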

Additional observations from a re-analysis of the deposited data

How the results depend on the processing

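Of 14 alternative settings, 4 leave out a library. eBayes without a trend called 203 genes higher and 374 lower over all genes, and 3 and 4 in the pathway lists, against 617, 820, 8 and 7 in the analysis reported; it lost Gpx8 among the members and 9 of the 15 pathway calls. A filter of a mean FPKM of at least 5 called 11 pathway genes lower and 0 members higher, because Nox4 then drops out of the tested genes. The replicate block called 404 genes higher and 604 lower and changed no member call; the numbers are shared by name only, the correlation across genes of the replicate differences of the 2 groups being −0.05, and the block lost Gclc, Pdia4 and Sephs2. Leaving out 1 library gave 0 to 405 genes higher and 0 to 622 lower, 0 to 1 members higher and 0 to 3 lower, and 0 to 6 pathway genes in each direction. The 0 counts came from limma without scramble replicate 1 and without scramble replicate 2, and the cause was not tested; in each such fit the lone library is taken to vary like the other group. Without circEsyt2 siRNA replicate 2 the counts were 272 and 228, with 1 member lower (Sod3) and Cat in place of Nox4 as the member called higher. Other settings called 418 to 900 genes higher and 588 to 1166 lower, voom on recovered fragments the most. The call of Pdia4 was also lost with no filter on low values. No called member changed sign under any of the alternatives. The added alternative of principal transcript length moved the Sod3 share of the dismutases to 2.64% with circEsyt2 siRNA and 20.2% with scramble siRNA on average. Depth limits Nox4 most, at 39 fragments in scramble replicate 1. There were 2 libraries a group. Differences that rest on circEsyt2 siRNA replicate 1, as for Cat and Sod1, cannot be told apart from its high hepatocyte markers. Replicate 2 of that group also had a higher hepatocyte marker sum than the scramble libraries (128 against 21.3 and 15.2 FPKM). Leaving out replicate 1 therefore does not remove those markers.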
